A study of Mus musculus with 6 samples.

Results

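The genes S100a8, S100a9, Camp, Ngp, Ltf, Lcn2, Chi3l3 and 1100001G20Rik, best known from the neutrophil lineage, were followed across the cells of the mouse spinal cord. They are 8 of the 17042 genes found in all 6 deposited tables, and they were chosen by their measured levels in monocytes, which swung between libraries, so every monocyte value below is a description without a test. The libraries came from the spinal cords of wild-type mice given vehicle (WT-Veh), of SOD1-G93A mice given vehicle (SOD1-Veh) and of SOD1-G93A mice given Necrostatin-1s (SOD1-Nec), with 2 libraries in each of the 3 groups. SOD1-G93A mice carry a transgene of the mutant human SOD1 gene and are a model of amyotrophic lateral sclerosis; Necrostatin-1s inhibits the kinase RIPK1. Age and sex were not in the labels used here. All 6 libraries were made by Drop-seq, a droplet method that gives each cell a barcode and each captured RNA a unique molecular identifier (UMI), after Accutase digestion, myelin removal and a density gradient of OptiPrep and Hibernate A. Whether the paired libraries of a group stem from different animals is not in the labels, and the p-values then reflect library-to-library spread, which may be technical.

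S100a8 and S100a9 encode calcium-binding proteins that pair as calprotectin, the most abundant protein of the neutrophil cytosol, which binds metal ions and can signal through Toll-like receptor 4 and the receptor RAGE. The proteins of the specific, or secondary, granules are made while a neutrophil matures in the bone marrow: Camp encodes the precursor of the antimicrobial peptide cathelicidin, Ltf the iron-binding lactoferrin, Lcn2 a lipocalin that captures bacterial iron carriers, and Ngp a cystatin-like granule protein. Chi3l3 encodes Ym1, a chitinase-like protein of neutrophils and of some monocytes and macrophages. 1100001G20Rik, which RefSeq calls Wfdc21, encodes a small protein with a whey acidic protein domain. Transcription of several secondary granule genes depends on factors of the C/EBP family.

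The genes with a RefSeq promoter lie on chromosomes 2, 3 and 9. RefSeq promoter sequences of build GRCm38.p6 matched 7 of the 8, with 1100001G20Rik unmatched. The submitters' processing notes name mm9 and the deposited tables give no coordinates, so these positions are RefSeq's alone. Shown are the 250 bases before the transcription start of the 4 genes that hold the C/EBP motif TTGCNNAA or its reverse complement TTNNGCAA there. S100a8 and Camp share the cell type pattern described below without such a match. The match is in capitals and each sequence runs 5′ to 3′ toward the start.
S100a9, chr3:90695722-90695971, minus strand: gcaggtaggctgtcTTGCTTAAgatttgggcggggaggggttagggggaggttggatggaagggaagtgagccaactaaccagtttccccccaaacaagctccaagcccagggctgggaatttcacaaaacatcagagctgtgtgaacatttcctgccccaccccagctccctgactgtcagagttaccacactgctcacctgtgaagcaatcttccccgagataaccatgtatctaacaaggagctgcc
Ngp, chr9:110419558-110419807, plus strand: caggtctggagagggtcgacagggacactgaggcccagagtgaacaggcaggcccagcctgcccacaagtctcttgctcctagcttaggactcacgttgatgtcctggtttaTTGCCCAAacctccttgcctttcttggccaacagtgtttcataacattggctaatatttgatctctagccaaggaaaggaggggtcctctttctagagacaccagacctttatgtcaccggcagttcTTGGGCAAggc
Ltf, chr9:111019042-111019291, plus strand: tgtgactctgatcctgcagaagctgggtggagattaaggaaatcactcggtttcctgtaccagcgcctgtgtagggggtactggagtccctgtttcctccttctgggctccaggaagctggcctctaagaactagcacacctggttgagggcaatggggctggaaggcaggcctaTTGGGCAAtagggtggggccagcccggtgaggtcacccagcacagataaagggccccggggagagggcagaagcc
Lcn2, chr2:32387740-32387989, minus strand: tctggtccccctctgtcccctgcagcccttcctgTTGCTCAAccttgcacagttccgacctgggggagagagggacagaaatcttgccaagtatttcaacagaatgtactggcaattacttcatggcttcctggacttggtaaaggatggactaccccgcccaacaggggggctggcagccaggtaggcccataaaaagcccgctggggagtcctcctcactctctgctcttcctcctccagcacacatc
The match began 236 bases before the start in S100a9, 138 and 11 bases before it in Ngp, 75 in Ltf and 216 in Lcn2. Of 32851 RefSeq promoters, 9.56% held such a match in the same 250 bases. S100a8 (chr3:90668821-90669070), Camp (chr9:109849457-109849706) and Chi3l3 (chr3:106167565-106167814) held none in this window. The core of the PU.1 site, GAGGAA or its reverse complement TTCCTC, was found in S100a8, Ltf and Lcn2 and in 23.2% of all promoters. A match of letters is a description of the sequence and was not tested as a binding site.

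Of 21919 barcodes, 3331 were kept as cells, with at least 200 detected genes, at most 20% mitochondrial UMIs and no doublet call. Total UMIs per library ranged from 1508618 to 1767205, and the median kept cell held 524 to 727 UMIs. Between all libraries, 25 barcode sequences of 21877 were shared, and 1 of 3330 among kept cells. Sod1, whose single entry does not separate the transgene from the mouse gene, was at 1.79 and 2.13 UMIs per 10000 in WT-Veh and between 41.4 and 53.9 in the 4 SOD1 libraries. Cells were assigned by gates of at least 2 UMIs over a short marker list that holds none of the 8 genes. The neutrophil gate read Retnlg, Mmp9, Mmp8, Cxcr2, Ly6g, Pglyrp1, Cd177, Itgb2l, Trem3, Il1r2, Mmp25 and Stfa2l1, and it took 88 and 54 cells (WT-Veh), 46 and 50 (SOD1-Veh) and 58 and 55 (SOD1-Nec). All 12 of these markers had UMIs in the neutrophils of every library, summing to between 95.6 and 283 per 10000, while the B cell gate summed to at most 0.733 and the microglia gate to at most 1.22 there, low by choice since cells of several gates were left out. Levels below are UMIs of a gene per 10000 UMIs of the source, summed over its cells in 1 library.

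In neutrophils the 8 genes together made up a large part of the RNA counted: 33.1% and 34.2% of UMIs (WT-Veh), 28.3% and 28.3% (SOD1-Veh) and 33.0% and 36.3% (SOD1-Nec). S100a9 stood at 1277 and 1296 (WT-Veh), 1099 and 1060.1 (SOD1-Veh) and 1265 and 1174 (SOD1-Nec) UMIs per 10000. S100a8 was at 1202 and 1129, 958 and 1051, and 1121 and 1295 in the same order. The secondary granule genes followed at lower levels, with Camp at 319 and 414 (WT-Veh), 318 and 293 (SOD1-Veh) and 459 and 598 (SOD1-Nec). Ngp ranged from 226 to 289 over the 6 libraries, Ltf from 66.7 to 82.3, Lcn2 from 51.5 to 96.2, 1100001G20Rik from 46.8 to 77.1 and Chi3l3 from 28.3 to 55.8. Drop-seq counts the 3′ ends of transcripts, so these UMI levels were compared between genes without a length correction.

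**Figure D1:**
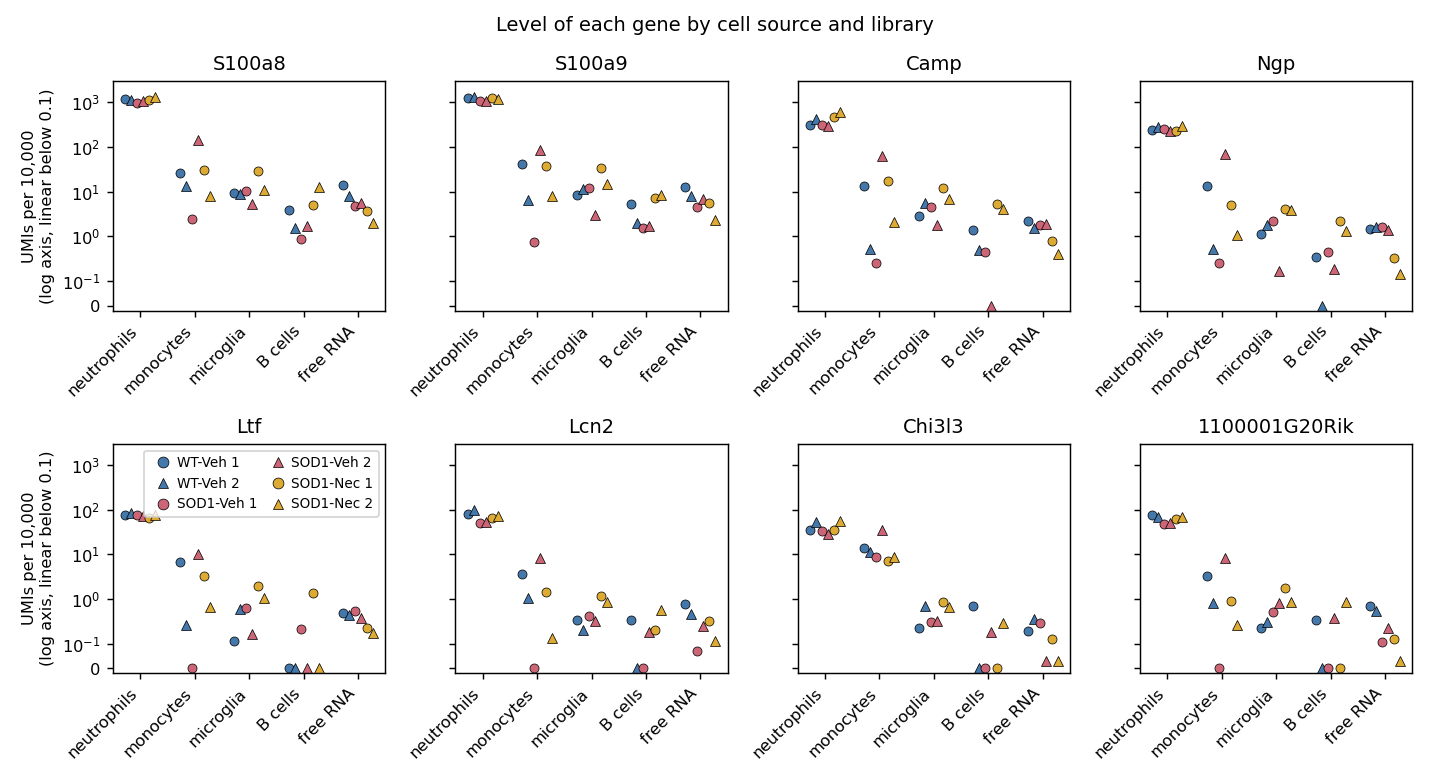
UMIs per 10000 (log axis, linear below 0.1) of each of the 8 genes in 5 sources of RNA; each point is 1 library, coloured by group, with replicate 1 as circles and replicate 2 as triangles. All 6 neutrophil points of each gene other than Chi3l3 lie above every point of the other sources. Chi3l3 in monocytes reaches from 7.10 to 36.0 and overlaps its neutrophil range of 28.3 to 55.8 through the second SOD1-Veh library alone.

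For 7 of the 8 genes the lowest neutrophil library was above the highest library of any other source. For S100a9 that gap was 12.3-fold, for S100a8 6.53-fold, for Ltf 6.42-fold, for Lcn2 6.38-fold, for 1100001G20Rik 5.79-fold, for Camp 4.74-fold and for Ngp 3.20-fold, each measured against the highest monocyte library. Below neutrophils these 7 genes were ordered by mean as monocytes, microglia, then B cells and free RNA, but the ranges of all neighbours in that order overlapped. Chi3l3 had the same order by mean but other overlaps. Its monocyte range overlapped that of neutrophils through the second SOD1-Veh library alone, at 36.0, with all other monocyte libraries at 13.9 or below. In that library a single barcode, described below, held most UMIs of the 8 genes. The lowest monocyte library of Chi3l3 was 8.18-fold above its highest microglia library.

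The share of cells that held a gene was also highest in neutrophils after each cell had been thinned to 300 UMIs, which makes depths equal and left out shallower cells: 0 of 351 neutrophils, 13 of 288 monocytes, 20 of 676 microglia and 26 of 392 B cells. S100a9 was found in 95.7% to 100% of thinned neutrophils, in 0% to 15.2% of monocytes, in 4.40% to 12.6% of microglia and in 4.81% to 16.2% of B cells; without thinning, the shares were 96% to 100%, 10.7% to 34.0%, 8.28% to 30.2% and 5.41% to 30%. Within a library the thinned share of monocytes lay above that of B cells in some libraries (11.8% against 6.67% in the second WT-Veh library) and below it in others (0% against 5.88% in the first SOD1-Veh library). Median depth was 576 to 1198 UMIs in monocytes, 483 to 832 in microglia and 457 to 670.5 in B cells, and the part of free RNA in these shares was not tested. Secondary granule genes were found in fewer neutrophils than S100a9, with Camp in 58.7% to 74.1%, Ngp in 65.2% to 76.4%, Ltf in 50% to 64.8%, Lcn2 in 56.5% to 79.6% and Chi3l3 in 32.6% to 58.2% of thinned cells. Chi3l3 was found in 18.5% to 37.0% of thinned monocytes, against 0% to 2.48% of microglia and 0% to 5.41% of B cells, with unthinned shares of 28.6% to 57.1%, 0.943% to 4.62% and 0% to 5%. The tables hold 11 UMIs of Chi3l4, a near-identical neighbour, beside 2517 of Chi3l3, and reads of the pair may have been split in the counting.

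Across the 30 points given by 5 sources and 6 libraries, the 6 other genes with the most similar profile to the mean of the 8 were G0s2 (Pearson r = 0.95), Mxd1 (r = 0.92), Adpgk (r = 0.92), Fcnb (r = 0.91), Pglyrp1 (r = 0.91) and Il1r2 (r = 0.91), of 1586 compared on log2(CPM + 10). Pglyrp1 encodes a bactericidal granule protein and Il1r2 the decoy receptor of interleukin-1; the last 2 are also in the neutrophil gate. Within the set, each gene was correlated with the mean of the other 7, at r = 0.96 to 0.99 for all but Chi3l3, which had r = 0.82. The 6 points of a source share their cell type and each library gives 5 of the points, so these values describe the pattern and carry no p-value.

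The first question was whether neutrophils themselves differed with the genotype. Each of the 8 genes was lower in SOD1-Veh than in WT-Veh neutrophils by the fitted value, with log2 fold changes between -0.78 and -0.16, but none passed the test. In 7 of the 8 the 2 SOD1-Veh libraries lay below both WT-Veh libraries, the exception being Ngp. The share of all genes that separated in this way was not counted, so this number is a description only. These levels include the muscle-rich barcodes described below, without which the 8 genes held 32.9% rather than 28.3% of UMIs in the first SOD1-Veh library. Lcn2 had the widest gap, at 78.5 and 96.2 UMIs per 10000 in WT-Veh and 51.5 and 53.1 in SOD1-Veh, a log2 fold change of -0.78 ± 0.34 (SE, 2 libraries per group) with an adjusted p of 0.908 in edgeR's quasi-likelihood test. The test, with Benjamini-Hochberg adjustment over all 702 genes tested, called 0 of the 8, while 1.99% of all genes were called in either direction. At an unadjusted p under 0.05 edgeR gave 1 of the 8 (Lcn2) and DESeq2 called 0.

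Among the 14 genes called in that comparison were all 7 genes of a skeletal muscle list, such as Acta1 and Ckm. In each SOD1-Veh library 1 neutrophil-gate barcode had at least 10 muscle UMIs; the muscle genes summed to 1650 and 152 UMIs in these libraries and to at most 1 in the others. Without these barcodes, a choice made after seeing the data, the 8 genes held 32.9% and 28.8% of neutrophil UMIs in SOD1-Veh, against 33.1% and 34.2% in WT-Veh, and 0 of the 8 were called by edgeR, beside 1 of the 671 genes then tested.

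With Necrostatin-1s, Camp had the largest log2 fold change of the 8 genes in neutrophils, though it did not pass, from 318 and 293 UMIs per 10000 in SOD1-Veh to 459 and 598 in SOD1-Nec. The log2 fold change was 0.86 ± 0.26 (SE, 2 libraries per group), with a 95% interval from 0.35 to 1.37, an unadjusted p of 0.00715 and an adjusted p of 0.239 in edgeR. The 2 SOD1-Nec libraries lay above both SOD1-Veh libraries for 6 of the 8 genes, the exceptions being Ngp and Ltf. The share of all genes that did so was not counted, and the muscle-rich barcodes are included here. In the first SOD1-Veh library the 8 genes held 28.3% of UMIs with its muscle-rich barcode and 32.9% without it, beside 33.0% in the first SOD1-Nec library. The other log2 fold changes ran from 0.02 in Ltf, whose sign turned when libraries were scaled to total counts, to 0.66 in Chi3l3. edgeR called 0 of the 8, against 1.42% of all genes called in either direction, with 1 (Camp) at an unadjusted p under 0.05 and 0 called by DESeq2. Between SOD1-Nec and WT-Veh edgeR called 0 of the 8 as well, beside 0.142% of all genes, with 0 at an unadjusted p under 0.05 and 0 by DESeq2, and log2 fold changes ran from -0.30 in Lcn2 to 0.56 in Camp. These comparisons share libraries pairwise, so their values are given side by side only.

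The balance among the granule genes differed between libraries of these neutrophils. Ngp gave 0.761 and 0.668 UMIs per UMI of Camp (WT-Veh), 0.776 and 0.769 (SOD1-Veh) and 0.494 and 0.483 (SOD1-Nec), a ratio that was chosen after its values were seen and was not tested. Genes of mature neutrophils, a list of 13 with Cxcr2, Retnlg and Csf3r, summed to 204 and 130 (WT-Veh), 182 and 220 (SOD1-Veh) and 138 and 68.4 (SOD1-Nec) UMIs per 10000. Of its 10 genes tested, 0 were called in any of the 3 comparisons, and the median log2 fold change was -0.51 for SOD1-Nec minus SOD1-Veh and -0.54 for SOD1-Nec minus WT-Veh. Part of that list also defines the neutrophil gate, and its part in the values of the 8 genes was not tested.

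Other genes of the same biology were read in these neutrophils by lists. Of 15 further secondary and tertiary granule genes in the tables, such as Lyz2, Mmp8, Hp and Fcnb, 14 were tested and 0 were called in any comparison, with medians between -0.23 and -0.12. For SOD1-Nec minus SOD1-Veh, 7 of the 14 had negative and 7 positive log2 fold changes. Among them Fcnb, a ficolin gene of granulocyte precursors, had a log2 fold change of 1.29 ± 0.56 (SE) with an adjusted p of 0.411 in edgeR. Retnlg, which encodes a secreted resistin-like protein and belongs to the mature list, had -1.07 ± 0.41 with an adjusted p of 0.374; both were chosen after their values were seen. The primary granule genes, made at an earlier stage, such as Mpo and Elane, summed to 20.8 and 4.10 (WT-Veh), 0.217 and 0 (SOD1-Veh) and 1.95 and 3.89 (SOD1-Nec) UMIs per 10000, and none of the 6 in the tables passed the filter on low counts. Granulocyte transcription factors were a list of 7, of which 2 were tested (Cebpb and Spi1), and receptors for products of the 8 genes a list of 9, of which 3 were tested, with 0 called in both. Of 8 other S100 genes 3 were tested with 0 called, and that whole list summed to between 40.9 and 66.3 UMIs per 10000.

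Monocytes, taken by the rule as cells with at least 2 UMIs over Ccr2, F13a1, Ms4a6c and Fn1, numbered 47 and 35 (WT-Veh), 28 and 29 (SOD1-Veh) and 70 and 79 (SOD1-Nec). Their gate genes, which mark inflammatory monocytes and were all detected in every library, summed to between 53.8 and 88.8 UMIs per 10000. S100a9 was at 40.9 and 6.64 (WT-Veh), 0.745 and 86.3 (SOD1-Veh) and 37.7 and 7.99 (SOD1-Nec) UMIs per 10000. One library of each group was thus high and the other low, and the widest gap of all was between the 2 SOD1-Veh libraries. Camp was at 13.6 and 0.531, 0.248 and 61.8, and 17.3 and 2.10 in the same order. Ngp was at 13.2 and 0.531, 0.248 and 70.6, and 4.91 and 1.05, with the same libraries high. S100a8 was at 26.1 and 13.3, 2.48 and 147, and 30.6 and 7.99. All 8 genes were highest in the second SOD1-Veh library. Ltf, Lcn2 and 1100001G20Rik reached 10.4, 8.08 and 8.08 in the second SOD1-Veh library and had 0 UMIs in the first.

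In 2 of the 6 libraries a single barcode held most of these UMIs. In the second SOD1-Veh library 1 barcode gave 1700 of the 1855 UMIs of the 8 genes; it had 7449 UMIs, of which 22 fell on the neutrophil gate and 2 on the monocyte gate, both from Fn1. In the first WT-Veh library 1 barcode gave 700 of 855; it had 5198 UMIs, 50 of them on the microglia gate and 2 on the monocyte gate. In the first SOD1-Nec library 3 barcodes gave 501 of 567. The richest barcode gave 46 of 130 UMIs in the second WT-Veh library, 10 of 50 in the first SOD1-Veh library and 60 of 219 in the second SOD1-Nec library. No UMI of the 8 genes was found in 11 of 47 and 17 of 35 monocytes of WT-Veh, 9 of 28 and 9 of 29 of SOD1-Veh, and 37 of 70 and 40 of 79 of SOD1-Nec.

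Without the 3 barcodes richest in the 8 genes in each library, a choice made after seeing the data, S100a9 was at 2.57 and 2.29 (WT-Veh), 0.571 and 1.86 (SOD1-Veh) and 2.28 and 1.07 (SOD1-Nec) UMIs per 10000. The same libraries held 12.4 and 7.89, 4.64 and 6.69, and 5.57 and 2.29 in their free RNA, so in each library the remaining monocytes lay under the free RNA level. With Fn1 taken out of the gate the second SOD1-Veh library fell from 86.3 to 3.12, while the first WT-Veh library stayed at 41.4 and the first SOD1-Nec library at 38.0. With barcodes of the neutrophil gate left out, S100a9 was at 3.65 and 2.61, 0.867 and 1.95, and 20.4 and 5.75. With at least 3 gate UMIs it was at 2.44 and 8.23, 0.921 and 3.33, and 19.7 and 2.17. The order of the 3 group means of S100a9 therefore changed with the choice of barcodes: 23.8 (WT-Veh), 43.5 (SOD1-Veh) and 22.8 (SOD1-Nec) by the rule, but 3.13, 1.41 and 13.1 without the neutrophil gate. In Leiden clusters made without the 8 genes S100a9 was at 15.3 and 22.8, 0.750 and 2.93, and 24.7 and 18.5, so there the 2 SOD1-Veh libraries lay below the other 4; this choice was also made after seeing the data.

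**Figure D2:**
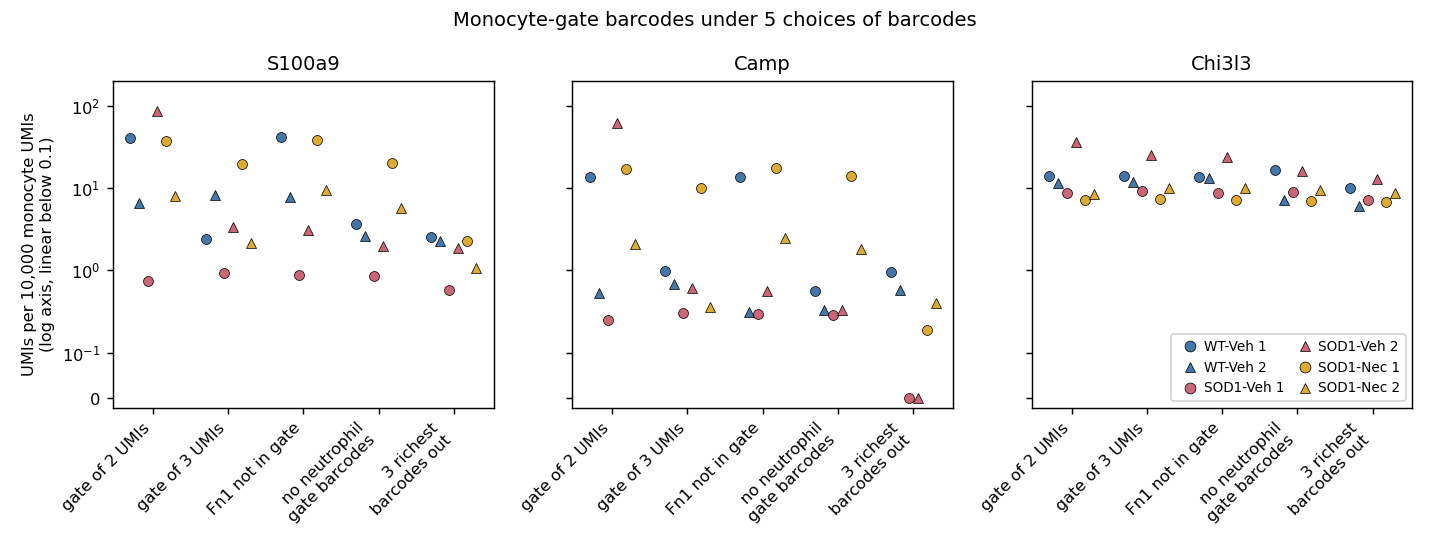
UMIs of S100a9, Camp and Chi3l3 per 10000 UMIs of monocyte-gate barcodes (log axis, linear below 0.1) under 5 choices of barcodes; each point is 1 library. S100a9 in the second SOD1-Veh library moves from 86.3 to 3.12 when Fn1 is not in the gate, and Chi3l3 stays between 6.02 and 36.0 in every library under all 5 choices.

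Chi3l3 behaved differently from the other 7 in monocytes. It was at 13.9 and 11.4 (WT-Veh), 8.69 and 36.0 (SOD1-Veh) and 7.10 and 8.52 (SOD1-Nec) UMIs per 10000. Its lowest ratio to the free RNA of the same library was 30.2-fold, whereas the lowest ratios of the other 7 were between 0 and 0.519. Chi3l3 had only 7 and 13 (WT-Veh), 8 and 1 (SOD1-Veh) and 4 and 1 (SOD1-Nec) UMIs in free RNA, so its ratios are imprecise. They use all UMIs. Outside red cell genes, the scale used for free RNA below, Chi3l3 in free RNA was at 0.0454 to 0.730 per 10000. Without the 3 richest barcodes of each library it was still at 10.1 and 6.02, 7.13 and 13.1, and 6.85 and 8.68, all above its free RNA. Over all barcodes of the 6 libraries 17.3% of Chi3l3 UMIs fell in monocytes and 52.4% in neutrophils, while the monocyte share of the other 7 genes was between 1.37% and 3.22%. Primary granule genes were also present in the monocyte-gate cells, at 3.46 to 16.5 UMIs per 10000; their part in the Chi3l3 level was not tested.

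In B cells, which are not known for any of the 8 genes, Camp, S100a8 and S100a9 rose with Necrostatin-1s against vehicle in SOD1 mice. These 3 passed the filter on low counts largely through the SOD1-Nec libraries, where they are high, and Camp through these alone. Their number and the call of Camp are therefore no support in themselves. Camp was at 0.435 and 0 UMIs per 10000 in SOD1-Veh and at 5.16 and 4.13 in SOD1-Nec; 55 UMIs stood against 2, a ratio of 22.7 with an exact 95% counting interval from 6.00 to 192, and edgeR gave an adjusted p of 0.00217. S100a8 went from 0.870 and 1.68 to 4.97 and 12.5, a log2 fold change of 2.77 ± 0.51 (SE) with an adjusted p of 0.00249. S100a9 went from 1.52 and 1.68 to 7.15 and 8.26, a log2 fold change of 2.26 ± 0.44 (SE) with an adjusted p of 0.00442. The groups did not overlap for these 3 genes, but the share of all genes that separated in this way was not counted. Of the 950 genes tested, 0.737% were called as risen. The other 5 genes had at most 11 UMIs in any B cell library and were not tested.

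Few of the 89 and 111 SOD1-Nec B cells carried these UMIs. A single barcode in the first SOD1-Nec library gave 83 of 106 UMIs of the 8 genes, and 2 in the second gave 171 of 196. Each held 5 or 6 of the 8 genes, at 9.37% to 15.3% of its UMIs, with 2 UMIs on the B cell gate; barcodes with 2 or more UMIs on the neutrophil gate had been left out by choice. The barcode of the first library also held 290 red cell UMIs. All other SOD1-Nec B cells together held 4.65 and 3.62 UMIs of the 8 genes per 10000, against 12.04 and 4.04 in WT-Veh and 3.48 and 4.29 in SOD1-Veh. DESeq2 called 0 of the 3 genes, a gate of at least 3 UMIs called 0, and without the second SOD1-Nec library edgeR called 0.

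Against WT-Veh the 3 genes were also higher in SOD1-Nec B cells, S100a8 with a log2 fold change of 1.75 ± 0.51 (SE), but edgeR called 0, with a lowest adjusted p of 0.230, beside 0.526% of all genes called. All 3 had an unadjusted p under 0.05, and DESeq2 called 0. Without the first SOD1-Nec library 1 of the 3 was called, and 2 of 4 tested without the first or without the second SOD1-Veh library. Between SOD1-Veh and WT-Veh edgeR called 0 of the 3, against 0.526% of all genes, with 1 (S100a9) at an unadjusted p under 0.05 and 0 called by DESeq2. Red cell genes were also high in the B cells, where 5 haemoglobin and haem synthesis genes summed to 263 and 54.5 (WT-Veh), 516 and 536 (SOD1-Veh) and 559 and 680.4 (SOD1-Nec) UMIs per 10000; their part in the values was not tested.

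In microglia S100a8, S100a9, Camp and Ngp were higher with Necrostatin-1s, again with most UMIs in few cells. S100a9 was at 8.31 and 11.4 (WT-Veh), 12.2 and 2.93 (SOD1-Veh) and 33.6 and 15.03 (SOD1-Nec) UMIs per 10000. Both its SOD1-Nec libraries lay above the other 4, a separation that was not counted over all genes. Between SOD1-Nec and SOD1-Veh the log2 fold change was 1.67 ± 0.34 (SE, 2 libraries per group), with an adjusted p of 0.00464 in edgeR. The other 3 genes tested were also called, beside 1.15% of all 1827 genes that rose: Camp by 1.54 ± 0.34 (adjusted p = 0.00799), S100a8 by 1.35 ± 0.31 (0.0137) and Ngp by 1.58 ± 0.44 (0.0450) on the log2 scale in edgeR. The other 4 genes had at most 18 UMIs in any library and were not tested. With Scrublet doublets and cells of several gates both kept, edgeR called 0 of the 4, and the log2 fold changes were -0.27 for S100a8, -0.074 for Camp, -0.80 for Ngp and 0.25 for S100a9. With at least 400 genes per cell 0 were called, and without the 3 richest barcodes of each library 1 (S100a9).

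Against WT-Veh the same 4 genes rose in SOD1-Nec, where 2.41% of all genes rose. The log2 fold changes were 1.36 ± 0.33 for S100a9 (adjusted p = 0.0143), 1.20 ± 0.31 for S100a8 (0.0199), 1.19 ± 0.32 for Camp (0.0247) and 1.48 ± 0.42 for Ngp (0.0368) in edgeR. With doublets and cells of several gates kept, with at least 400 genes per cell, or without the 3 richest barcodes of each library, 0 were called. Between SOD1-Veh and WT-Veh edgeR called 0 of the 4, beside 0.985% of all genes, with 0 at an unadjusted p under 0.05 and 0 by DESeq2, and log2 fold changes ran from -0.35 to -0.10; without the first SOD1-Veh library 1 of 7 tested was called. Red cell genes moved in the same direction: 4 of 5 tested rose in SOD1-Nec against WT-Veh, among them Hbb-bs by 1.21 ± 0.35 (adjusted p = 0.0370), and they summed to 120 and 268 (WT-Veh), 331 and 55.0 (SOD1-Veh) and 392 and 576 (SOD1-Nec) UMIs per 10000. Tmem119, a gene of homeostatic microglia in the microglia gate, fell by 1.60 on the log2 scale in SOD1-Nec against WT-Veh (adjusted p = 0.000303), and Lyz2, a lysozyme gene of myeloid cells, rose by 1.97 (adjusted p = 2.5e-05 in edgeR). Lyz2 was the only one called of 4 tested from the list of other secondary and tertiary granule genes, whose median was -0.19 with 2 negative and 2 positive. The part of these genes in the values of the 8 was not tested.

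As in B cells, few barcodes carried the UMIs. Barcodes with at least 50 UMIs of the 8 genes numbered 1 and 1 (WT-Veh), 1 and 0 (SOD1-Veh) and 5 and 3 (SOD1-Nec), of 130 and 169 microglia in the SOD1-Nec libraries. They gave 738 of 778 UMIs in the first SOD1-Nec library and 395 of 427 in the second. In the 11 such barcodes the 8 genes took 10.7% to 37.0% of UMIs, with 6 to 8 of the genes detected; barcodes with 2 or more UMIs on the neutrophil gate had been left out by choice, so the gate does not tell what these barcodes hold. All other microglia held 9.94 and 6.26 UMIs of the 8 genes per 10000 (WT-Veh), 3.42 and 11.7 (SOD1-Veh) and 4.49 and 3.10 (SOD1-Nec). DESeq2 called 0 of the 4 genes in both comparisons. Without the first SOD1-Nec library edgeR called 0 in both, without the second SOD1-Veh library 1 of 7 tested (S100a9) against SOD1-Veh, and without the first WT-Veh library 1 of 7 tested (S100a8) against WT-Veh.

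**Figure D3:**
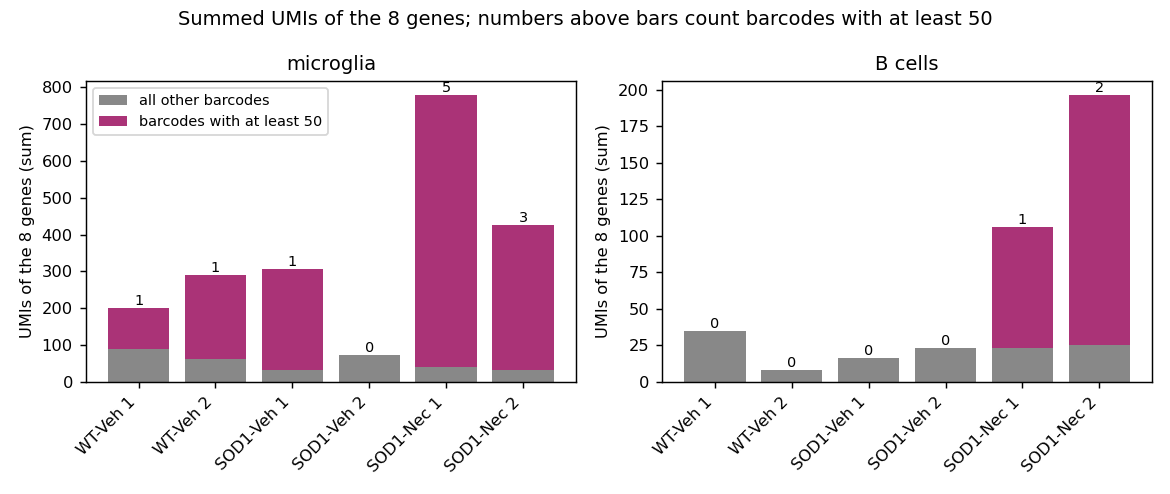
Summed UMIs of the 8 genes in microglia and in B cells of each library, as stacked bars from 0, with barcodes that hold at least 50 such UMIs in purple and all others in grey; the number above each bar counts the purple barcodes. In SOD1-Nec microglia 5 and 3 barcodes give 738 and 395 of the 778 and 427 UMIs.

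**Figure D4:**
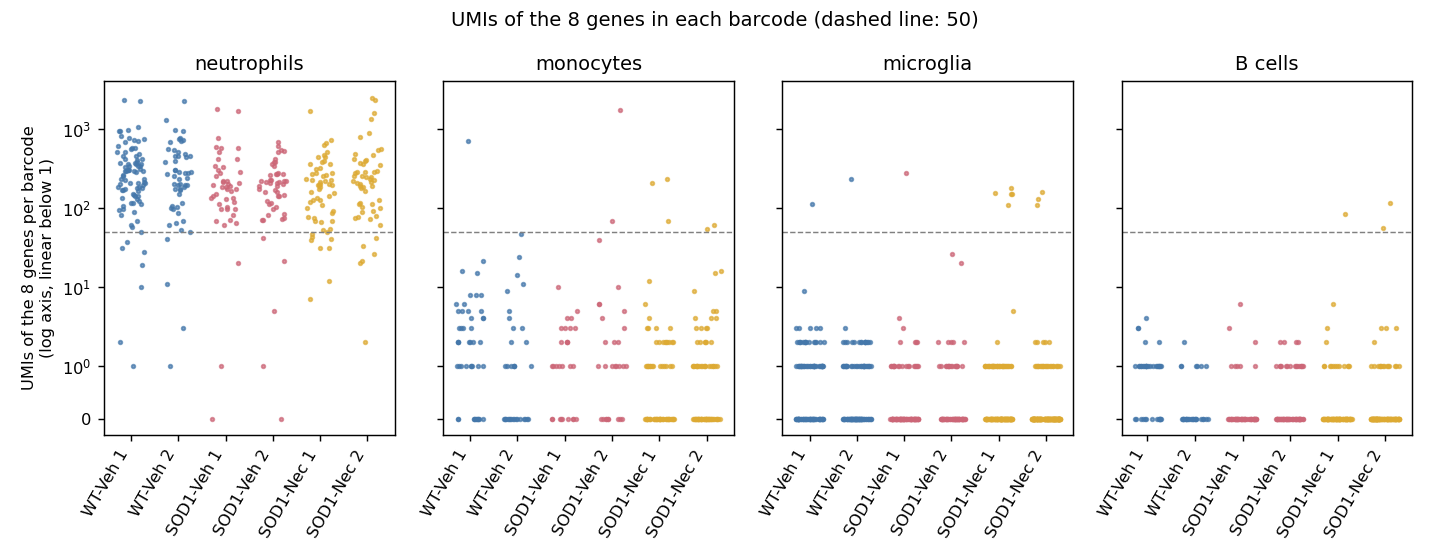
UMIs of the 8 genes in each barcode (log axis, linear below 1) of neutrophils, monocytes, microglia and B cells; each point is 1 barcode, in columns by library, spread sideways at random, and the dashed line marks 50 UMIs. Most neutrophils lie above the line, while 11 microglia, 8 monocyte-gate cells and 3 B cells do.

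Barcodes that passed no gate held the 8 genes too. Among kept cells without any gate, those with over 10% of their UMIs from the 8 genes numbered 3 and 6 (WT-Veh), 1 and 1 (SOD1-Veh) and 15 and 17 (SOD1-Nec). They held 674 and 1177, 191 and 157, and 3654 and 3671 UMIs of the genes; lacking any gate, each had at most 1 UMI on the neutrophil gate by choice. Gated neutrophils held 69.6% and 68.0% of all UMIs of the 8 genes (WT-Veh), 65.1% and 61.3% (SOD1-Veh) but 39.4% and 48.7% (SOD1-Nec). Kept cells outside the 4 cell types, with no gate or with several, held 5.78% and 12.9%, 18.7% and 5.14%, and 15.2% and 23.1%. The median kept cell had 655 and 576, 727 and 699.5, and 527 and 524 UMIs. The part of depth in passing a gate was not tested. Barcodes with at least 100 but under 200 genes held 19.0% and 13.8%, 10.8% and 18.7%, and 38.2% and 25.1%. Over all barcodes the 8 genes made up 2.57% and 1.73% of UMIs (WT-Veh), 1.26% and 1.16% (SOD1-Veh) and 1.94% and 2.41% (SOD1-Nec), values described without a test.

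The RNA of barcodes with under 100 detected genes was taken as free RNA, a stand-in for the background that any droplet can pick up. The median depth of these barcodes was 192 and 182 UMIs (WT-Veh), 190 and 183 (SOD1-Veh) and 347 and 438 (SOD1-Nec). Whether some of them are red cells rather than empty droplets was not tested. Free RNA is a pool, in which fewer cells of a type and less RNA per cell cannot be told apart. Its composition was dominated by red cell genes, which held 55.2% and 51.6% of UMIs (WT-Veh), 36.4% and 30.1% (SOD1-Veh) and 69.0% and 77.9% (SOD1-Nec). Levels of the 8 genes are therefore given per 10000 UMIs outside the red cell genes, which is close to the scaling of the test. On that scale S100a8 was at 31.8 and 16.6 (WT-Veh), 7.53 and 8.12 (SOD1-Veh) and 11.6 and 8.97 (SOD1-Nec). S100a9 was at 27.7 and 16.3, 7.31 and 9.58, and 17.9 and 10.4. Both were highest in the 2 WT-Veh libraries, except that the first SOD1-Nec library of S100a9 exceeded the second WT-Veh library.

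Of the 7 genes tested, 4 fell in the free RNA of SOD1-Veh against WT-Veh, where 2.69% of all 1860 genes fell. S100a8 fell by 1.56 ± 0.28 on the log2 scale (SE, 2 libraries per group), with an adjusted p of 0.00191 in edgeR, and S100a9 by 1.31 ± 0.29 (0.0122). Lcn2 fell by 2.32 ± 0.55 (0.0203), from 1.75 and 0.955 to 0.113 and 0.363 UMIs per 10000 outside red cell genes, and 1100001G20Rik fell by 2.32 ± 0.51 (0.0127). Lcn2 had 28 and 17 UMIs in WT-Veh and 2 and 8 in SOD1-Veh. 1100001G20Rik had 25 and 20 against 3 and 7. Both passed the filter on low counts largely through WT-Veh, where they are high. Their calls, and the count of 4 that includes them, are therefore no support in themselves. Camp, Ngp and Ltf did not pass, with log2 fold changes from -0.50 to -0.45, and Chi3l3 was not tested. Scaled to total counts, which moved the median of all genes by 0.47 on the log2 scale, 0 of the 7 genes were called by edgeR and 1 was positive, and without the first WT-Veh library or the first SOD1-Veh library 1 was called.

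With Necrostatin-1s against vehicle, Ngp alone of the 7 was called in free RNA, with a log2 fold change of -1.43 ± 0.41 (SE) and an adjusted p of 0.0318 in edgeR, beside 1.02% of all genes that fell. Ngp was at 3.31 and 3.37 UMIs per 10000 outside red cell genes (WT-Veh), 2.55 and 2.00 (SOD1-Veh) and 1.04 and 0.641 (SOD1-Nec). Its 3 groups did not overlap, a separation that was not counted over all genes. Of the other 6, 5 had positive log2 fold changes, up to 1.60 in Lcn2, and none of these passed; scaled to total counts, only 1 of the 7 was positive. Under that scaling, which moved the median of all genes by -1.37 on the log2 scale, 4 of the 7 fell, and DESeq2 called 0. Without the first or the second SOD1-Veh library, or without the first SOD1-Nec library, edgeR called 0. Without the second SOD1-Nec library Ngp was not called either (adjusted p = 0.286), and S100a9 rose instead.

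Against WT-Veh, 3 of the 7 fell in the free RNA of SOD1-Nec, beside 0.591% of all genes: Ngp by 1.93 ± 0.40 (adjusted p = 0.00432), S100a8 by 1.20 ± 0.28 (0.0120) and 1100001G20Rik by 2.17 ± 0.62 (0.0447) on the log2 scale in edgeR. 1100001G20Rik was again tested largely through its WT-Veh libraries, so its call is no support in itself. Under total counts, with a median shift of -0.85, 5 of the 7 fell. Without the second SOD1-Nec library edgeR called 0, and without the first WT-Veh library 1. Genes of the neutrophil gate summed to 3.13 and 1.44 UMIs per 10000 in free RNA (WT-Veh), 0.756 and 2.00 (SOD1-Veh) and 0.869 and 0.425 (SOD1-Nec). These sums are per 10000 of all UMIs, red cell genes included, and so are not on the scale used for the 8 genes. In the test 2 of these gate genes passed the filter and 0 were called. Their median log2 fold change was -0.99 for SOD1-Veh minus WT-Veh, 0.06 for SOD1-Nec minus SOD1-Veh and -0.93 for SOD1-Nec minus WT-Veh. All 7 skeletal muscle genes rose in the free RNA of SOD1-Veh against WT-Veh, and their part in the values of the 8 genes was not tested.

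**Figure D5:**
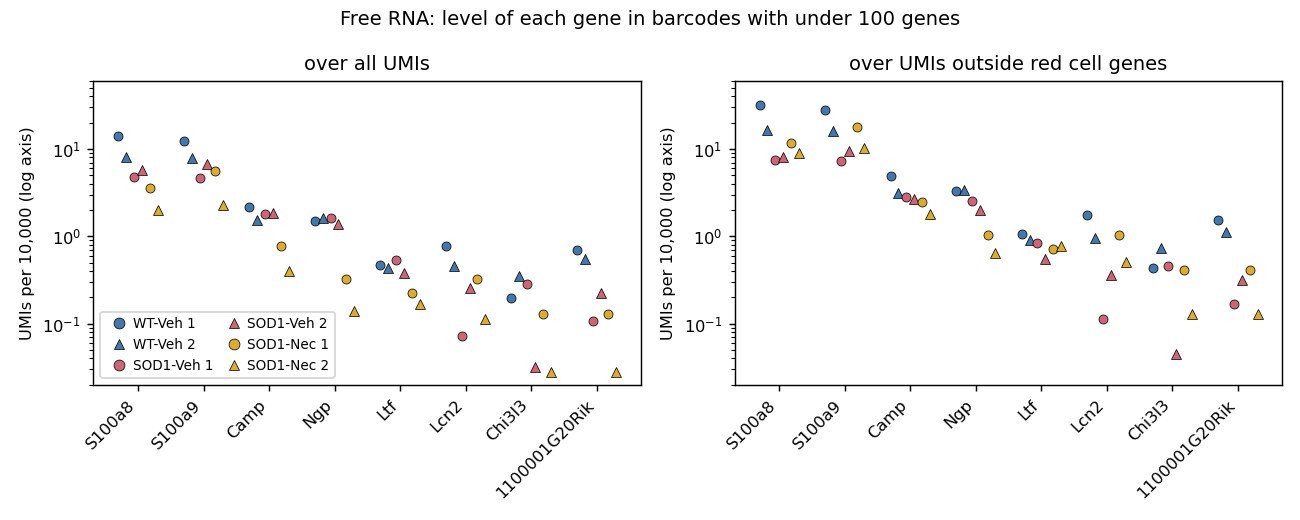
Level of each of the 8 genes in the free RNA of each library, per 10000 of all UMIs (left) and per 10000 UMIs outside red cell genes (right), on log axes; each point is 1 library. Outside red cell genes S100a8 stands at 31.8 and 16.6 in WT-Veh and between 7.53 and 11.6 in the other 4 libraries.

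Replicate numbers coincided with 2 sets of tables that list different genes, 18169 in replicate 1 and 18650 in replicate 2. When libraries were compared 1 against 1 within each set, the called differences kept their direction, which the calls themselves nearly fix. In microglia S100a9 was 2.76-fold higher in SOD1-Nec than in SOD1-Veh in the first set and 5.13-fold in the second, and against WT-Veh 4.04-fold and 1.32-fold.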

How the data were processed

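The authors deposited 1 table of raw UMI counts per library (genes by barcodes); genome build mm9 is named in the submitters' processing notes, and no aligner is named in the sources used here. The 8 genes, the gene lists and the gates were chosen with earlier results of these data known. Barcodes with at least 200 genes and at most 20% mitochondrial UMIs were kept, Scrublet (scanpy 1.11.5) removed 29 of 3360 as doublets, and cells passing several gates were left out, except in monocytes. UMI counts were summed per library and source and tested with edgeR 4.0.16 in R 4.3.3 (quasi-likelihood F test, TMM, filterByExpr, group only, 6 libraries in 1 fit), with calls at an adjusted p below 0.05; the script was tested on simulated data. Levels carry counting error only. From each gene list, values are given for up to 2 genes with the most UMIs and up to 3 that were called. Values are also given for genes among the 6 of like profile, and other genes are named as examples of their lists. Alternatives changed the tool, scaling, filter, gates, depth limits, clusters, block and libraries.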

Additional observations from a re-analysis of the deposited data

Results flagged for a closer look

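In 3 cases 1 of the 8 genes was called by edgeR in opposite directions in 2 sources under the same comparison. The libraries did not overlap in either source, and the difference itself was not tested. How many of all genes were called in this way was not counted. In SOD1-Nec microglia 5 and 3 barcodes gave 738 of 778 and 395 of 427 UMIs of the 8 genes, and DESeq2 called 0 there. Ngp had 10 and 5 UMIs in the free RNA of SOD1-Nec. S100a8 rose in microglia and fell in free RNA of SOD1-Nec against WT-Veh, and the log2 fold changes differed by 2.40. Ngp rose in microglia and fell in free RNA both against SOD1-Veh, with a difference of 3.01, and against WT-Veh, with a difference of 3.41. Cells that passed no gate were in none of the comparisons, and their summed level of the 8 genes was 160 and 121 UMIs per 10000 in the 2 SOD1-Nec libraries, above 37.1 and 49.5 in WT-Veh. Groups of 2 libraries are too small for a test of single outlying libraries.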

How the results depend on the processing

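None of the 8 genes was called in neutrophils under any alternative run. Counts of genes called that moved were as follows. In B cells, SOD1-Nec minus SOD1-Veh, 3 became 0 with a gate of at least 3 UMIs, with at least 400 genes per cell and with DESeq2; against WT-Veh, 0 became 4 with doublets and cells of several gates kept and 1 without a filter. In microglia, SOD1-Nec minus SOD1-Veh, 4 became 0 with at least 400 genes per cell, with DESeq2 and with doublets and cells of several gates kept, and 1 without the 3 barcodes richest in the genes; against WT-Veh, 4 became 0 under all 4 of these; for SOD1-Veh minus WT-Veh, 0 became 3 fallen with Leiden clusters made without the genes. In free RNA, total counts gave 0, 4 and 5 in place of 4, 1 and 3, and DESeq2 gave 2 and 0 in the first 2 comparisons. With doublets and cells of several gates kept, log2 fold changes in microglia, SOD1-Nec minus SOD1-Veh, were -0.27 for S100a8, -0.074 for Camp and -0.80 for Ngp. The mean S100a9 level of SOD1-Nec monocytes became 1.68 without the 3 richest barcodes. The cause of these moves was not tested, apart from the barcodes removed. Without the 3 richest barcodes none passed the filter in B cells. Leaving out 1 library at a time gave, for SOD1-Veh minus WT-Veh, SOD1-Nec minus SOD1-Veh and SOD1-Nec minus WT-Veh in turn, 0, 0 to 3 and 0 to 2 calls in B cells, 0 to 1, 0 to 4 and 0 to 4 in microglia, and 1 to 4, 0 to 1 and 0 to 3 in free RNA; it gave 0 in neutrophils. A lone library was assumed to vary like the other groups. The replicate numbers did not pair the libraries (correlations of deviations -0.27, -0.39 and 0.22), and with a replicate block Ngp in microglia, SOD1-Nec minus WT-Veh, had an adjusted p of 0.0536 in edgeR, which left 3 of 4 calls there; in the other comparisons the block left counts within 1.5 times. Depth limited the tests to 3 of 8 genes in B cells and 4 of 8 in microglia.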
